A study of Mus musculus with 77 samples.

Results

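The rod phototransduction and outer segment genes are a set of 38 genes that rod photoreceptors use to build the outer segment and to turn light into an electrical signal. All 38 were found among the 21154 genes with a symbol on the retina arrays, through 55 of the 55681 probes that are no controls. The set is a list of named genes, drawn up with earlier results of these data known, and each gene was represented by its probe with the brightest mean signal in the retina channel. Both retinas of each C57BL/6 mouse were pooled, and the RNA of 77 mice was hybridized against a universal mouse reference RNA on arrays with 2 colors. OIR mice were kept in 75% oxygen from postnatal day 7 (P7) to P12 and then in room air, and control mice were kept in 21% oxygen throughout. There were 13 OIR mice at each age, and 12, 12 and 14 control mice at P12, P17 and P28. No mouse was measured more than once, and the litter of a mouse is not given in the labels. The paper randomized whole litters to the oxygen level, so that littermates shared it. All fits here treat the mice as independent, which can make their *p*-values too small. P12 is the end of the exposure, P17 is the day of maximal neovascularization in this model, and P28 follows its regression.

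In a rod, the light-activated visual pigment switches on the G protein transducin, which activates a phosphodiesterase that breaks down cGMP. As cGMP falls, the cation channels of the outer segment close, and calcium falls because the exchanger keeps removing it. Low calcium then lets the guanylate cyclase activating proteins drive the synthesis of new cGMP, while a kinase, arrestin and a GTPase-accelerating complex shut off the pigment and transducin. In mice, the outer segments are still growing in the weeks after birth.

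The labels place the retina in Cy5 and the reference in Cy3, whereas the arrays show the opposite. Genes of bipolar cells, amacrine cells and Mueller glia, taken as the median of each list, were brighter in Cy3 on 77 of 77 arrays, and those of cell division were brighter in Cy3 on 0 of 77. A list made for the reference RNA, of liver and embryo genes, was less clear, brighter in Cy3 on 25 of 77 arrays (-1.06 to 0.158). *Xist* ranged from 5.75 to 8.99 on the log2 scale among mice in Cy3, but only from 6.07 to 6.49 in Cy5. Cy3 was therefore treated as the retina, so that every ratio has the retina above the reference, opposite to the dyes in the labels. Each gene is given both as the log2 ratio and as the log2 signal of the Cy3 channel alone, normalized between arrays. The ratio was the main measure, and a gene was called significantly different at an adjusted *p* under 0.05 over all 55681 probes in limma.

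The probes of 36 of the 38 genes were well above background in Cy3 on all 77 arrays. The exceptions were *Gucy2e*, on 76 arrays, and *Fscn2*, on 71. No spot of any of the 38 genes was saturated in Cy3. In the reference channel, 14 genes were well above background on all 77 arrays and 11 on a minority of the arrays, so that for the latter the ratio rests on a dim reference. The arrays lay on 11 slides and were scanned on 4 days, called scans 1 to 4. Per array, 13764 to 34305 probes were well above background in Cy3. Of the P28 mice, 11 OIR and 9 control mice were on scan 4, where the median of this number was 33071 and 32934, and the other 5 control mice were on scan 3, where it was 20493. The number of mice per group sets the precision. Within a group, the SD of a rod gene between mice had a median of 0.47 to 0.59 in the ratio and of 0.30 to 0.37 in Cy3.

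Promoter windows of 300 bases around the start of the gene, from the RefSeq annotation (build GRCm38.p6), matched 29 of the 38 genes, and a gene with several windows was counted once if any of them held a motif. Not matched were *Gnat1*, *Pde6g*, *Pde6a*, *Rcvrn*, *Guca1b*, *Reep6*, *Cabp4*, *Rgs9bp* and *Rp1*. The windows were searched on both strands for 3 short motifs of photoreceptor promoters. TAATCC is the core of the site bound by the homeodomain factor Crx, TGCTGA is a core of the response element of the rod factor Nrl, and CAATTAG is a conserved element of photoreceptor promoters. TAATCC was found in 13 of the 29 rod genes (44.8%), whereas 8.14% of all 27025 genes with a window hold it. TGCTGA was found in 9 of 29 (31%, against 21.7% of all genes) and CAATTAG in 2 of 29 (6.9%, against 2.32%). These are matches of letters, given without a test. The windows below are those of *Guca1a*, which differed between OIR and control mice, and of the 3 genes with the most matches, *Sag*, *Crx* and *Aipl1*. Capitals mark the motifs on either strand, so that GGATTA is TAATCC and CTAATTG is CAATTAG read from the other strand.
Guca1a, chr17:47400557-47400856, minus strand: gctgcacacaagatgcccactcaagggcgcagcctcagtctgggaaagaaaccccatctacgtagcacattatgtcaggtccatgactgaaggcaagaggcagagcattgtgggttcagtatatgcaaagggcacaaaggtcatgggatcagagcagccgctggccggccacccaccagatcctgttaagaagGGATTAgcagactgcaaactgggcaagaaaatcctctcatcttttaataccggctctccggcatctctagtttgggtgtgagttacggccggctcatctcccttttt
Sag, chr1:87803430-87803729, plus strand: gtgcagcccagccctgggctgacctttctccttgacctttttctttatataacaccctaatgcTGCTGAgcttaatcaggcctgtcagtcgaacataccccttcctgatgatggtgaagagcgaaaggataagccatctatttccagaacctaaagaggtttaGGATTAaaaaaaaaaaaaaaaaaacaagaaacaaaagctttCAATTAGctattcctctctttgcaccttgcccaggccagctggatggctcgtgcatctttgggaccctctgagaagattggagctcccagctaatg
Crx, chr7:15879906-15880205, minus strand: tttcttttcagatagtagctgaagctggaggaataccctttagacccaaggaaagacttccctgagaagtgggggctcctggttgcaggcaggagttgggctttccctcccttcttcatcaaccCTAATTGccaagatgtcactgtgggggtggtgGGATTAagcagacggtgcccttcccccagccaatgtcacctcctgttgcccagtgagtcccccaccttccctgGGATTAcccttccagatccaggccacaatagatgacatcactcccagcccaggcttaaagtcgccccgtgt
Aipl1, chr11:72037460-72037759, minus strand: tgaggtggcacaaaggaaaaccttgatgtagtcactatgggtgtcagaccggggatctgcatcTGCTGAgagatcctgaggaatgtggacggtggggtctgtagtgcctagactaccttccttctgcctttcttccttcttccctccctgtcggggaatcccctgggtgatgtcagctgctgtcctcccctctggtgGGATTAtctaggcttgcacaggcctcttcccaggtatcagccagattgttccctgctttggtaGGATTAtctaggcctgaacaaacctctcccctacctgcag
In *Guca1a* the single match, TAATCC on the opposite strand, begins 57 bases before the start of the gene. In *Crx*, which holds matches to the site of its own product, a pair of TAATCC matches begin 94 and 21 bases before the start. *Sag* is the only printed window with all 3 motifs.

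On P12, directly after the hyperoxia, no rod gene was significantly different between OIR and control mice. In limma, 0 of 38 passed in the ratio, against 0.0233% of all probes, and 0 of 38 in Cy3, against 0.0718%. At an unadjusted *p* under 0.05 there was 1 gene in each, and the share of all probes at this threshold was not counted. The median difference over the 38 genes was -0.11 in the ratio and -0.01 in Cy3, beside 0.00 over all probes in both. The 95% confidence intervals of 36 genes in the ratio and of all 38 in Cy3 lay within a log2 difference of 1 in either direction. *Rp1*, which organizes the microtubules of the axoneme, had the lowest ratio difference, -0.51 (SE 0.246, adjusted *p* = 1), and *Rpgrip1* of the connecting cilium had the lowest Cy3 difference, -0.31 (SE 0.218, adjusted *p* = 1). Differences of this size were within the spread between mice.

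On P17, *Guca1a* was significantly underexpressed in the retinas of OIR mice. It encodes guanylate cyclase activating protein 1, the calcium sensor that switches on cGMP synthesis when calcium falls. In Cy3, *Guca1a* had a lowest, median and highest value of 9.97, 10.65 and 11.16 in the 12 control mice, and of 9.38, 10.02 and 10.54 in the 13 OIR mice. All 13 OIR mice lay below the median of the control mice, although the groups overlapped. In the ratio, the values were 2.0, 3.2 and 3.81 in control mice and 2.17, 2.45 and 3.04 in OIR mice, and again 13 of 13 OIR mice were below the control median. The difference was -0.59 in the ratio (SE 0.145, 95% interval -0.88 to -0.29, adjusted *p* = 0.0436), which is 0.666 of the control level. It was -0.67 in Cy3 (SE 0.14, 95% interval -0.96 to -0.38, adjusted *p* = 0.00468). With the slide as a block it was -0.63 in the ratio (adjusted *p* = 0.0164) and -0.70 in Cy3 (adjusted *p* = 0.00326). Within single scans the Cy3 difference was -0.53 on scan 1, -0.87 on scan 3 and -0.33 on scan 4. None of these passed on its own. These scans held 5, 6 and 2 OIR mice and 3, 3 and 5 control mice of P17. In Cy3 there, 0.392%, 1.03% and 0.00539% of all probes were called. In the ratio that the authors deposited, the difference was -0.14 (adjusted *p* = 0.897), and it was -0.48 without background subtraction (adjusted *p* = 0.114), -0.21 without the offset (adjusted *p* = 0.811), and unchanged in size but above the threshold with all 6 groups in the fit (adjusted *p* = 0.123). In Cy3 scaled to the 75th percentile it was -0.82 (adjusted *p* = 0.861). *Guca1a* was the rod gene that passed in the ratio, so that 1 of 38 was lower (2.63%), against 0.33% of all probes. Many of these probes are dim, unlike those of the rod genes. Among the 22094 probes kept by a filter on dim probes, 3.89% were called in either direction, above the 2.63% of the rod genes. Other settings called other genes lower, *Fscn2* in the deposited ratio (-0.83, adjusted *p* = 0.0467), *Pde6b* with array weights beside *Guca1a* (-0.56, adjusted *p* = 0.0184), and *Pde6b* and *Rgs9bp* within scan 3 (-0.63 for each).

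The neighbor of *Guca1a* on chromosome 17, *Guca1b*, encodes the second activating protein of the rod cyclases. It was also underexpressed in OIR mice on P17 in Cy3, by a smaller amount. The control mice had a lowest, median and highest Cy3 value of 12.85, 13.25 and 13.41 and the OIR mice of 12.51, 12.86 and 13.27. Of the OIR mice, 11 of 13 were below the control median. The Cy3 difference was -0.36 (SE 0.0898, 95% interval -0.55 to -0.18, adjusted *p* = 0.0207). In the ratio it was -0.07 (SE 0.155, adjusted *p* = 0.89), and the second probe of *Guca1b* had a Cy3 difference of -0.17 that did not pass (adjusted *p* = 0.715). The Cy3 call was also lost with scaling to the 75th percentile (-0.39, adjusted *p* = 0.861) and within scans 1, 3 and 4 (-0.17, -0.50 and -0.35). The cyclases themselves, *Gucy2e* and *Gucy2f*, had Cy3 differences of 0.18 and 0.19 without passing (adjusted *p* = 0.653 and 0.689). Thus the 2 rod genes lower in Cy3, 5.26% of the set against 1.41% of all probes, were both activating proteins of the cyclases.

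With the slide as a block, *Rgs9bp* and *Grk1* also passed in Cy3 on P17. *Rgs9bp* anchors the GTPase-accelerating complex that shuts off transducin, and *Grk1* is the kinase of the light-activated pigment. *Rgs9bp* was at -0.42 in Cy3 (SE 0.124, adjusted *p* = 0.066) and at -0.38 with the block (adjusted *p* = 0.0481). Its ratio differed by -0.63 (SE 0.277, adjusted *p* = 0.413), the lowest ratio difference of the 38 genes. *Grk1* was at -0.27 in Cy3 (SE 0.121, adjusted *p* = 0.341) and at -0.24 with the block (adjusted *p* = 0.045). For *Rgs9*, the catalytic subunit of that complex, the brightest probe was at 0.08 in Cy3 (adjusted *p* = 0.912), whereas both of its dimmer probes were higher in OIR mice, by 0.33 (adjusted *p* = 0.0183) and 0.42 (adjusted *p* = 0.00982). In the ratio those probes were at 0.065 and 0.094 and did not pass.

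**Figure D1:**
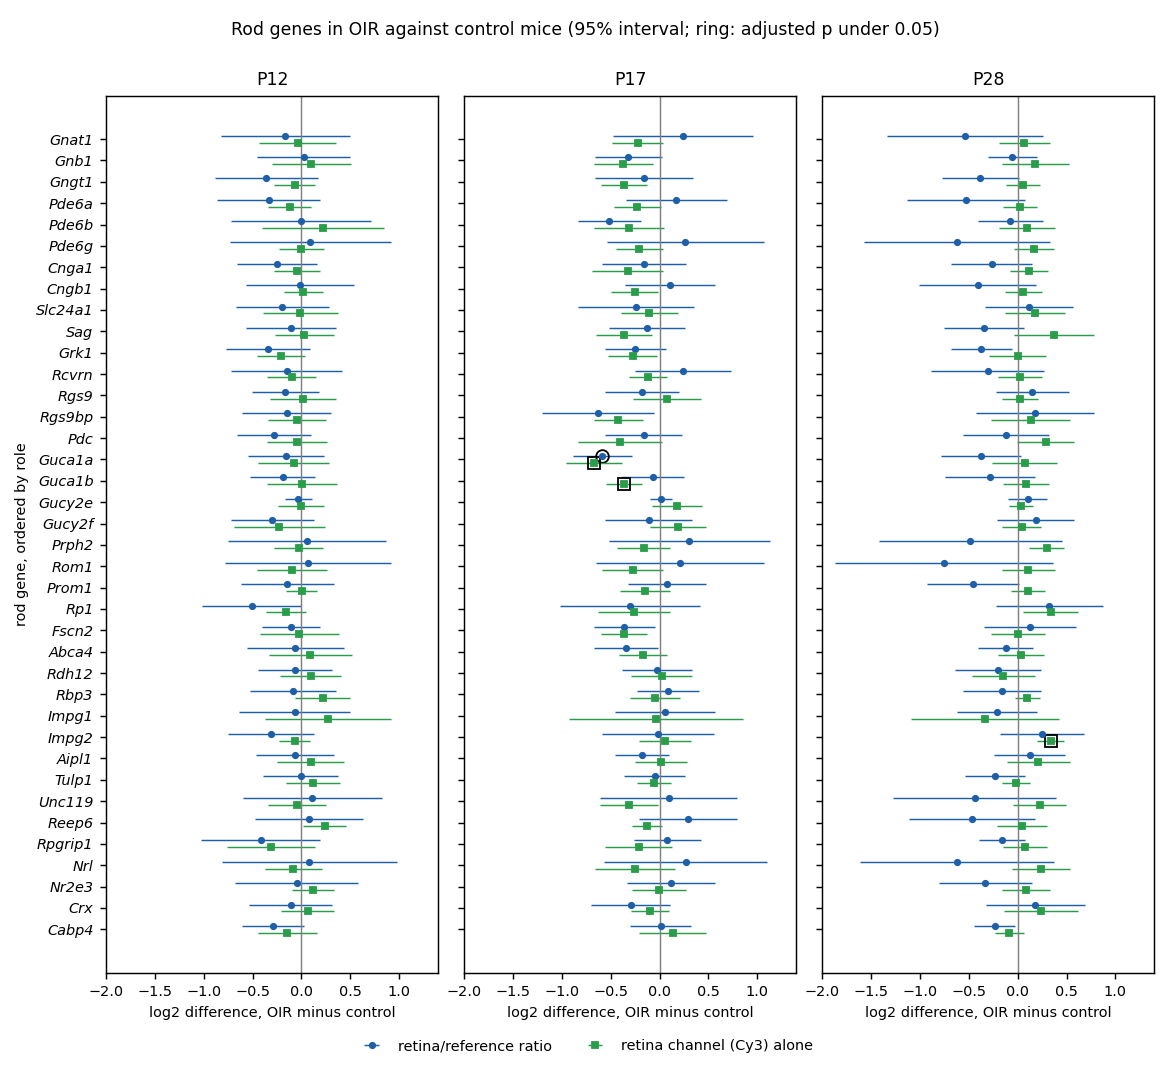
Log2 difference between OIR and control mice (x axis) of the 38 rod genes (y axis, ordered by role) on P12, P17 and P28, in the retina to reference ratio (circles) and in Cy3 alone (squares), with 95% confidence intervals from limma; black rings mark an adjusted p under 0.05. Rings are seen on P17 for *Guca1a* in both measures and for *Guca1b* in Cy3, and on P28 for *Impg2* in Cy3, whereas P12 has none.

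The rest of the rod genes did not pass on P17 in the ratio or in Cy3. In Cy3 the difference was below 0 for 31 of the 38 genes, with a median of -0.21 beside 0.00 over all probes, whereas in the ratio it was below 0 for 21, with a median of -0.04. Among the genes of activation, the 6 Cy3 differences lay between -0.21 for the inhibitory phosphodiesterase subunit *Pde6g* and -0.37 for the transducin subunit *Gnb1*. The ratio differences of these genes ran from -0.51 for *Pde6b* (adjusted *p* = 0.147) to 0.26 for *Pde6g* (adjusted *p* = 0.826). The transcription factors *Nrl*, *Nr2e3* and *Crx*, which direct rod fate and rod gene expression, were at -0.25, -0.01 and -0.10 in Cy3 (adjusted *p* = 0.717, 0.994 and 0.781). For all 38 genes the 95% interval of the Cy3 difference lay within a log2 difference of 1 in either direction, and in the ratio this held for 32.

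Genes of other retinal cells moved on P17 as well. In Cy3, 6 of 16 bipolar, 5 of 11 ganglion, 2 of 11 amacrine, 3 of 11 pigment epithelium and 4 of 10 Mueller glia genes were lower in OIR mice, and none of these lists had a gene that was higher. Of 13 cone genes, *Gnb3* was higher (0.70) and *Slc24a2* lower (-0.35). Of 43 other photoreceptor genes 1 was lower, *Kcnj14* (-0.47), a potassium channel gene. On the other side, 8 of 8 reactive glia, 7 of 9 microglia and macrophage, 6 of 8 red blood cell, 5 of 12 endothelial and 4 of 8 mural genes were higher. *Birc5* (0.65) and *Mki67* (0.38) of cell division and *Col1a1* (0.88) of the reference list were higher too, and the lens gene *Bfsp2* was lower (-0.49). Of all 55681 probes, 1.41% were lower in Cy3 and 879 were higher in limma. In the ratio, the bipolar, cone and other photoreceptor lists had 0 genes called in either direction in limma. Called lower there were *Car2* of Mueller glia (-0.65), *Slc6a9* of amacrine cells (-0.36), *Nefl* of ganglion cells (-0.77) and *Bfsp2* (-0.31). Genes of the reactive glia, endothelial, mural, microglia and macrophage, and red blood cell lists were called higher. The part of all these lists in the values of the rod genes was not tested. In whole retinas, fewer cells of a type and less RNA per cell cannot be told apart.

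On P28, *Impg2* was significantly overexpressed in OIR mice in Cy3. It encodes a proteoglycan of the matrix that surrounds the outer segments. The lowest, median and highest Cy3 values were 10.43, 10.74 and 11.1 in the 14 control mice and 10.75, 11.07 and 11.28 in the 13 OIR mice. All 13 OIR mice were above the control median, and the groups overlapped. The difference was 0.34 (SE 0.066, 95% interval 0.20 to 0.47, adjusted *p* = 0.0133), with the slide as a block 0.30 (adjusted *p* = 0.00593), and within scan 4 alone, with 11 OIR and 9 control mice, 0.27 (adjusted *p* = 0.0241). In Cy3 scaled to the 75th percentile it was 0.47 without passing (adjusted *p* = 0.516), and in the ratio it was 0.25 (SE 0.21, adjusted *p* = 0.734). On this day *Samd7*, of the other photoreceptor genes, was also higher in Cy3, by 0.33 in limma (SE 0.066, adjusted *p* = 0.0196). So were 4 of 8 reactive glia and 3 of 9 microglia and macrophage genes, and the part of all these genes in the value of *Impg2* was not tested. Thus 1 of 38 rod genes was higher in Cy3 (2.63%), against 0.271% of all probes, and 0 of 38 passed in the ratio in limma, against 0.0611% of all probes in either direction. At an unadjusted *p* under 0.05 there were 2 genes in the ratio and 3 in Cy3, again without a share of all probes. The median ratio difference of the 38 genes on P28 was -0.23, but 0.06 with the slide as a block, and that of Cy3 was 0.09. *Guca1a* and *Guca1b*, lower on P17, were at 0.07 and 0.09 in Cy3 on P28 (adjusted *p* = 0.876 and 0.778).

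The change of the OIR effect on *Guca1a* between days did not pass the threshold. In Cy3 it was -0.59 from P12 to P17 (SE 0.236, adjusted *p* = 0.299) and 0.74 from P17 to P28 (SE 0.232, adjusted *p* = 0.119). In limma, 0 of 38 rod genes passed the test of a change of the OIR effect on either step, in the ratio (against 0.48% and 0.278% of all probes) or in Cy3 (against 1.72% and 0.97%). At an unadjusted *p* under 0.05 there were 0 and 1 genes in the ratio and 3 and 15 in Cy3. The share of all probes at this threshold was not counted, so these numbers do not set the rod genes apart. The comparisons of neighboring days share the mice of P17.

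**Figure D2:**
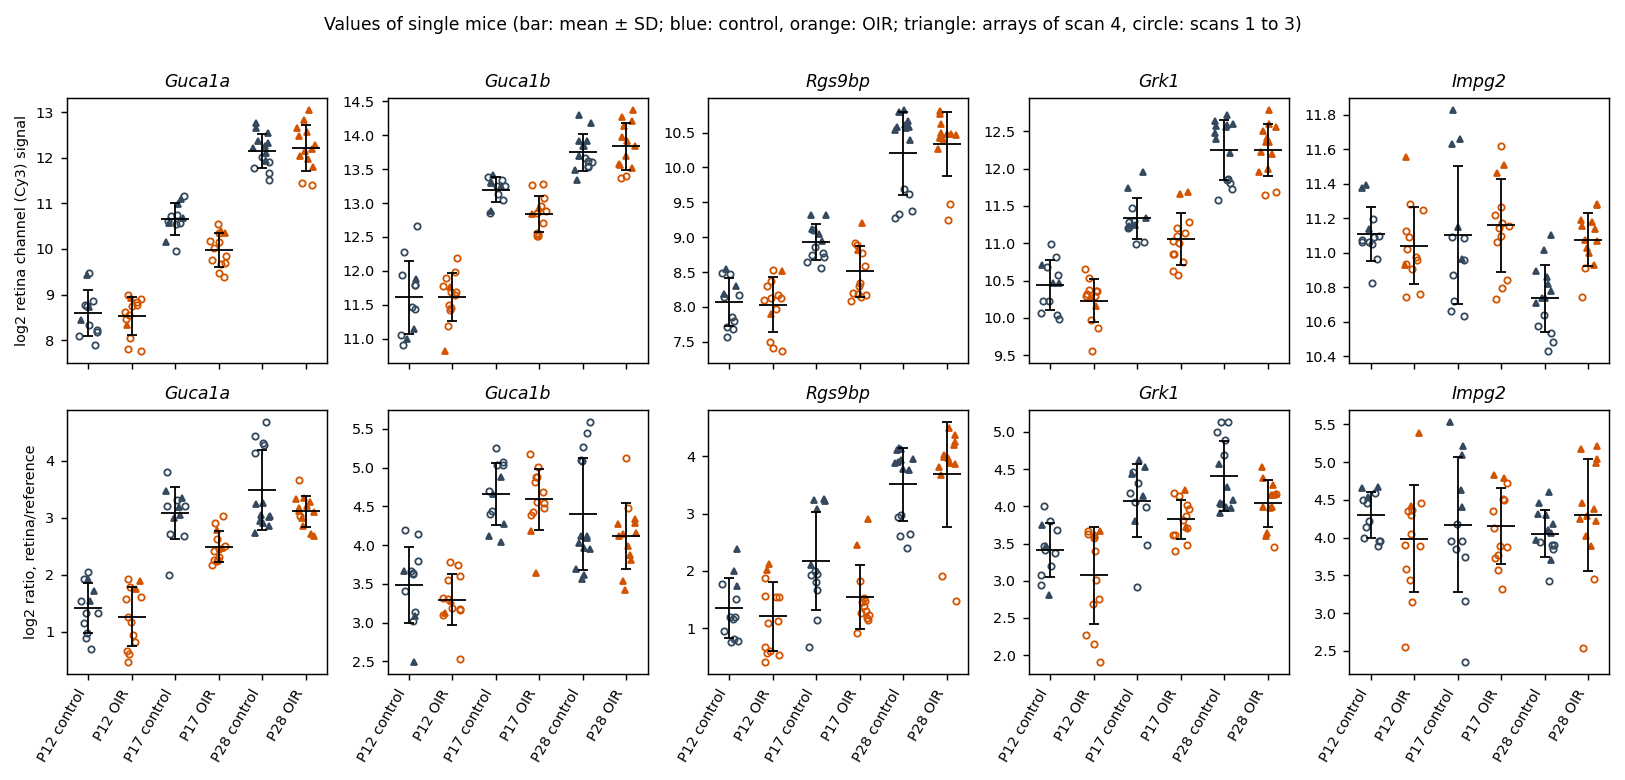
Values of single mice for *Guca1a*, *Guca1b*, *Rgs9bp*, *Grk1* and *Impg2* in the 6 groups (x axis), as the log2 Cy3 signal in the upper row and the log2 ratio of retina to reference in the lower row (y axes), with mean and SD as bars. Triangles are arrays of scan 4 and circles are those of scans 1 to 3; in the Cy3 panel of *Guca1a* the values climb from P12 to P28 in both groups, and on P17 the OIR mice sit lower than the control mice, with overlap.

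From P12 to P17, the activating proteins of the cyclases rose more than any other rod gene. In control mice *Guca1a* had a lowest, median and highest Cy3 value of 7.89, 8.59 and 9.47 on P12 and of 9.97, 10.65 and 11.16 on P17, so that the days did not overlap. The rise was 2.06 in Cy3 (SE 0.17, adjusted *p* = 2.24e-15), or 4.16-fold, and 1.66 in the ratio (SE 0.191, adjusted *p* = 1.67e-09). *Guca1b* went from 10.91, 11.62 and 12.66 to 12.85, 13.25 and 13.41 in Cy3, again without overlap, a rise of 1.59 (SE 0.138, adjusted *p* = 1.34e-14), and of 1.17 in the ratio (adjusted *p* = 3.92e-05). *Grk1* rose from 9.99, 10.47 and 10.99 to 10.99, 11.26 and 11.95, by 0.89 in Cy3 (SE 0.136, adjusted *p* = 1.54e-06) and by 0.66 in the ratio (SE 0.18, adjusted *p* = 0.038). In the ratio deposited by the authors, *Grk1* was at -0.25 on this step, and its second probe rose by 0.30 in Cy3 without passing (adjusted *p* = 0.422). These were the 3 rod genes that passed in the ratio in control mice (7.89% higher, against 0.623% of all probes). The same 3 passed in OIR mice, in which 1.94% of all probes were higher. With the filter on dim probes, 4.35% of the probes kept were called in control mice in either direction, against 7.89% of the rod genes. In OIR mice these shares were 10.9% and 15.8%. In OIR mice, *Guca1a* rose by 1.47 in Cy3 (SE 0.163) and *Guca1b* by 1.22 (SE 0.132). Within scans 1, 3 and 4, the Cy3 rise of *Guca1a* in control mice was 2.11, 2.13 and 1.83.

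In Cy3 alone, 11 rod genes rose in control mice from P12 to P17 (28.9%, against 1.65% of all probes) and 1 fell (2.63%, against 1.36%). The filter on dim probes was not applied in Cy3. Beside *Guca1a*, *Guca1b* and *Grk1*, the rises were those of transducin *Gnat1* (0.90, SE 0.16), the exchanger *Slc24a1* (0.89, SE 0.169), *Rgs9bp* (0.85, SE 0.169), the phosphodiesterase subunit *Pde6a* (0.73, SE 0.109), the actin bundling gene *Fscn2* (0.60, SE 0.16), the channel subunit *Cnga1* (0.53, SE 0.14), *Reep6* (0.51, SE 0.111) and the transducin subunit *Gngt1* (0.45, SE 0.106). Components of activation, channel, shutoff and cyclase control were therefore all among the genes that rose. The gene that fell was *Nr2e3*, the nuclear receptor that represses cone genes in rods, from a median of 12.49 to 11.92 in control mice, by 0.70 (SE 0.128, adjusted *p* = 7.98e-05). All 12 control mice of P17 were below the P12 median of *Nr2e3*. With Cy3 scaled to the 75th percentile, *Nr2e3* was at -0.80 without passing (adjusted *p* = 0.196), and of the rises those of *Guca1a*, *Guca1b* and *Gnat1* passed. *Nr2e3* fell in OIR mice too, by 0.83 (SE 0.123, adjusted *p* = 2.33e-07), beside the channel subunit *Cngb1*, by 0.32 (SE 0.103, adjusted *p* = 0.0408). In OIR mice 8 rod genes rose in Cy3 (21.1%, against 4.37% of all probes) and 2 fell (5.26%, against 3.71%). Of all these, 7 genes passed in both control and OIR mice, 5 in control mice alone and 3 in OIR mice alone, and no gene passed the test of the difference. The genes of outer segment structure, *Prph2*, *Rom1* and *Prom1*, were at 0.16, 0.13 and 0.14 in control mice and did not pass.

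**Figure D3:**
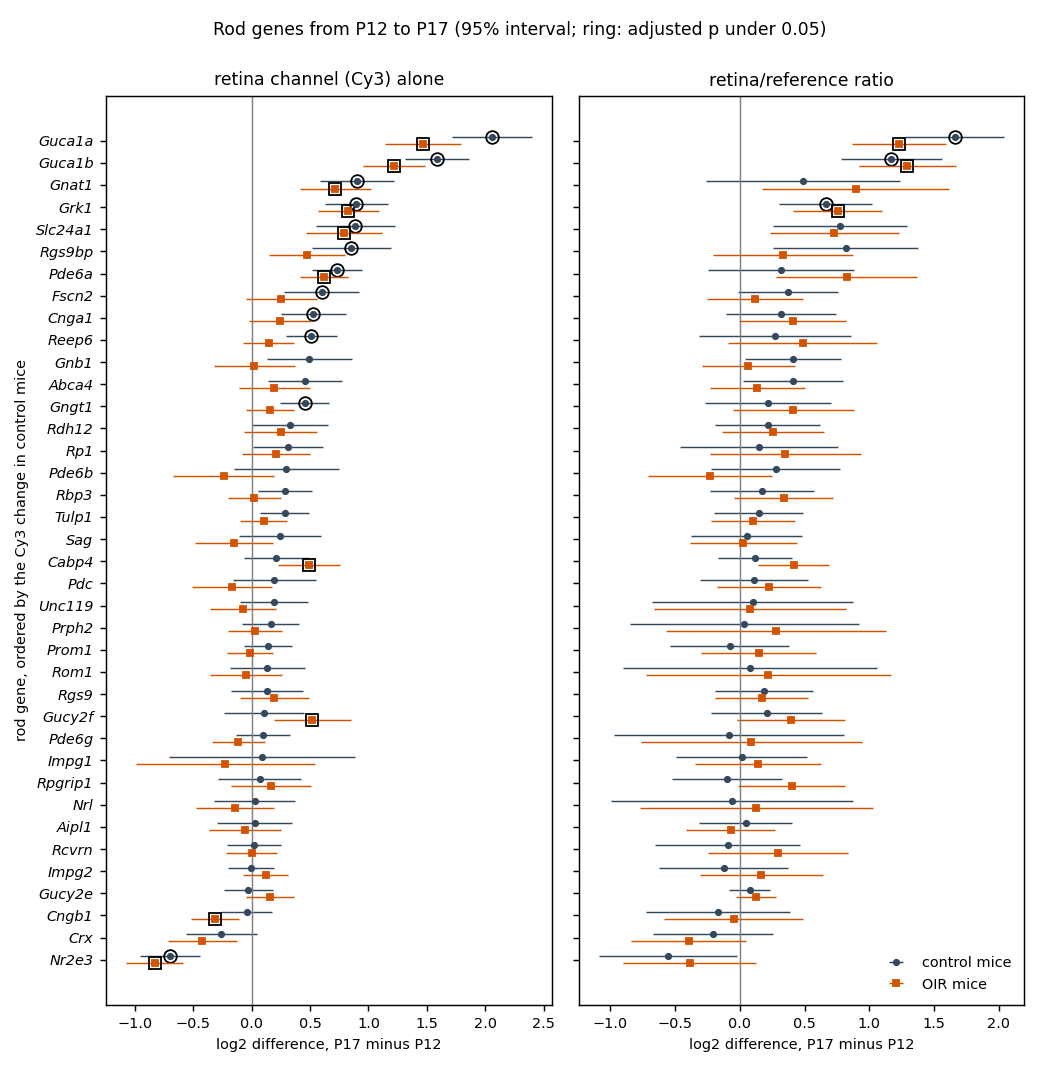
Log2 difference between P17 and P12 (x axis) of the 38 rod genes (y axis, ordered by the Cy3 difference in control mice) in control (circles) and OIR mice (squares), in Cy3 alone on the left and in the ratio on the right, with 95% confidence intervals from limma; black rings mark an adjusted p under 0.05. *Guca1a* and *Guca1b* stand at the top in both panels, *Nr2e3* stands at the bottom in Cy3, and the intervals in the ratio are wider.

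From P17 to P28, the result for many rod genes depended on the measure. In control mice, 13 genes rose (34.2%, against 10.4% of all probes) and 2 fell (5.26%, against 4.92%) in Cy3, whereas in the ratio 6 rose (15.8%, against 7.97%) and 10 fell (26.3%, against 5.38%). In the ratio deposited by the authors 0 rod genes rose and 19 fell in limma (50% called, against 19.7% of all probes). For 16 of the 38 genes the Cy3 difference was above 0 and the ratio difference below 0. The reference channel, which should hold the same RNA on each array, was itself higher on P28 at 36 of the 38 rod genes, and 10 of them passed, against 0.377% of all probes. In OIR mice, 28 genes rose in Cy3 (73.7%, against 21.4% of all probes) and 2 fell (5.26%, against 17.2%), while in the ratio 13 rose (34.2%, against 21.2%) and 18 fell (47.4%, against 19.4%). There the reference channel was called for 32 of 38 rod genes, against 6.38% of all probes. Of the P17 OIR mice, 5 were on scan 1, 6 on scan 3 and 2 on scan 4, whereas 11 P28 OIR mice were on scan 4. Age and scan thus largely coincide in OIR mice. Within scan 4 in limma, 6 genes rose and 0 fell in the ratio (15.8% called, against 4.92% of all probes). In Cy3 there, 12 rose and 0 fell (31.6%, against 8.43%). Of 15 lens genes, 15 had a Cy3 difference above 0 in control mice, with a median of 0.98 and 0 called in limma, and in OIR mice 14 did, with a median of 1.45 and 10 called higher. Their part in the values of the rod genes was not tested.

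The genes that rose in both measures in control mice were *Rgs9bp*, *Pde6b*, *Crx*, *Fscn2*, *Aipl1* and *Abca4*. All 6 are among the 11 genes with a dim reference, which was well above background on 14 arrays (*Fscn2*) to 38 arrays (*Abca4*) of 77. *Rgs9bp* had a lowest, median and highest ratio of 0.67, 1.98 and 3.25 on P17 and of 2.40, 3.84 and 4.15 on P28, a rise of 1.34 (SE 0.272, adjusted *p* = 0.000274), and its Cy3 signal rose by 1.27 (SE 0.163, adjusted *p* = 2.55e-08). *Pde6b*, the beta subunit of the phosphodiesterase, went from 2.03, 2.96 and 3.79 to 3.56, 4.07 and 4.35, by 1.09 in the ratio (SE 0.24, adjusted *p* = 0.000809) and by 1.19 in Cy3 (SE 0.217). All 14 control mice of P28 had a higher *Rgs9bp* ratio than the P17 median. *Crx* went from 0.97, 1.77 and 2.77 to 2.13, 3.19 and 3.53 in the ratio, by 1.03 (SE 0.223, adjusted *p* = 0.000636), and by 0.98 in Cy3 (SE 0.148). *Fscn2* went from 0.32, 0.71 and 1.56 to 1.12, 2.04 and 2.44, by 0.97 (SE 0.186, adjusted *p* = 0.000133), and by 0.84 in Cy3 (SE 0.154). *Aipl1*, a chaperone needed for a stable phosphodiesterase, went from 0.58, 1.46 and 2.15 to 1.65, 2.43 and 2.74, by 0.88 (SE 0.174, adjusted *p* = 0.0002), and by 0.99 in Cy3 (SE 0.155). *Abca4*, a transporter of retinoids in the disc membrane, rose by 0.74 in the ratio (SE 0.185) and by 0.94 in Cy3 (SE 0.154). The days overlapped for each of *Rgs9bp*, *Pde6b*, *Crx*, *Fscn2* and *Aipl1* in the ratio. The direction of most of these ratio differences, though not that of *Fscn2*, was lost under other processing. In the ratio deposited by the authors the difference was -0.15 for *Rgs9bp*, -1.0 for *Pde6b*, -0.57 for *Crx*, -0.91 for *Aipl1* and -1.18 for *Abca4*, and the last passed as a fall (adjusted *p* = 0.0411). *Fscn2* was at 0.41 there without passing (adjusted *p* = 0.444). Without the offset of 50, the difference was -0.15 for *Pde6b*, -0.46 for *Aipl1* and -0.57 for *Abca4*.

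The largest ratio falls from P17 to P28 in control mice were those of *Nrl*, *Rom1*, *Prph2*, *Pde6g* and *Unc119*, and each of them had a Cy3 difference above 0. *Prph2* and *Rom1* encode the tetraspanins that shape the disc rim, and *Unc119* binds the lipid tail of transducin. *Rom1* had a ratio of 3.86, 6.51 and 6.86 (lowest, median and highest) on P17 and of 3.07, 3.63 and 7.02 on P28, a difference of -1.41 (SE 0.475, adjusted *p* = 0.0365), against 0.36 in Cy3 (SE 0.156, adjusted *p* = 0.101). *Nrl* went from 4.39, 6.63 and 7.14 to 3.42, 3.99 and 6.89, by -1.42 (SE 0.452, adjusted *p* = 0.0259), against 0.16 in Cy3 (adjusted *p* = 0.572). *Prph2* went from 3.37, 5.37 and 6.59 to 2.24, 2.91 and 5.65, by -1.38 (SE 0.427, adjusted *p* = 0.0212), against 0.12 in Cy3 (adjusted *p* = 0.504). For each of these 3 genes the median of P28 lay below the lowest value of P17, although the days overlapped. *Pde6g* went from 4.02, 6.05 and 6.38 to 2.90, 3.65 and 6.45, by -1.27 (SE 0.429, adjusted *p* = 0.0365), against 0.17 in Cy3 (adjusted *p* = 0.328). *Unc119* went from 2.97, 4.55 and 5.02 to 1.90, 2.27 and 4.94, by -1.22 (SE 0.374, adjusted *p* = 0.0201), against 0.23 in Cy3 (adjusted *p* = 0.27).

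These ratios moved with the scan and with the reference channel. Among control mice of P28, the *Rom1* ratio was 6.75 ± 0.181 (SD, n = 5) on scan 3 and 3.36 ± 0.276 (SD, n = 9) on scan 4. In the same mice, the reference signal of *Rom1* was 8.21 ± 0.137 on scan 3 and 10.28 ± 0.203 on scan 4, and the Cy3 signal was 14.64 ± 0.0402 and 15.15 ± 0.297. The ratio of *Rom1* in control mice of one age thus differed more between scans than it did between days. Within scan 3, with 3 mice of P17 and 5 of P28, the ratio differences of *Rom1*, *Nrl*, *Prph2*, *Pde6g* and *Unc119* were 0.068, 0.055, 0.030, 0.042 and 0.089. Within scan 4, with 5 and 9 mice, they were -1.73, -1.70, -1.54, -1.51 and -1.60. By contrast, the ratio rises of *Rgs9bp*, *Pde6b*, *Crx*, *Fscn2* and *Aipl1* were 0.80, 1.01, 0.60, 0.66 and 0.60 within scan 3 and 0.98, 0.90, 0.85, 0.86 and 0.81 within scan 4. They kept their direction in both, although no rod gene passed in scan 3 in either measure. Within scan 3, 0.151% of all probes passed in the ratio on this step in control mice, and 0.189% in Cy3.

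*Guca1a* went on rising in Cy3 from P17 to P28. Control mice reached a lowest, median and highest value of 11.52, 12.17 and 12.76 on P28, with no overlap with P17, a rise of 1.49 (SE 0.164, adjusted *p* = 1.88e-10). OIR mice reached 11.39, 12.19 and 13.05, a rise of 2.23 (SE 0.163, adjusted *p* = 1.51e-18), also without overlap. In the ratio, the rise was 0.41 in control mice (SE 0.184, adjusted *p* = 0.131) and 0.62 in OIR mice (SE 0.183, adjusted *p* = 0.00442), while the reference signal of *Guca1a* rose by 1.32 in control mice (adjusted *p* = 0.00075). In the deposited ratio the direction was opposite, -0.53 in control mice (adjusted *p* = 0.226) and -0.74 in OIR mice, where it passed as a fall (adjusted *p* = 0.0495). Within scans 3 and 4, the Cy3 rise in control mice was 1.19 and 1.65, and the ratio difference was 1.12 and -0.20. *Guca1b* rose by 0.55 in Cy3 in control mice (SE 0.133, adjusted *p* = 0.00209) and by 1.0 in OIR mice (SE 0.132).

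Only *Rdh12*, a retinol dehydrogenase that clears retinal from photoreceptors, fell in both measures in control mice from P17 to P28, by 0.71 in Cy3 (SE 0.156, adjusted *p* = 0.000773) and by 0.80 in the ratio (SE 0.197, adjusted *p* = 0.00281). It fell in OIR mice by 0.87 in Cy3 (SE 0.156) and by 0.98 in the ratio (SE 0.196). In the deposited ratio it fell by 1.24 in control mice (adjusted *p* = 0.00142), but with Cy3 scaled to the 75th percentile, where the median of all probes was at -0.85, it was at -0.071 (adjusted *p* = 0.586). The matrix genes also had values below 0 in Cy3. *Impg1* fell in OIR mice by 1.31 (SE 0.383, adjusted *p* = 0.00457) and was at -1.01 in control mice (SE 0.385, adjusted *p* = 0.0622). *Impg2* fell in control mice by 0.37 (SE 0.0954, adjusted *p* = 0.00428) and was at -0.08 in OIR mice (SE 0.0952, adjusted *p* = 0.511). At the 75th percentile the difference of *Impg2* in control mice turned to 0.27 (adjusted *p* = 0.391). This is the gene that was higher in OIR than in control mice on P28, and the test of the change of its OIR effect from P17 to P28 gave 0.28 (SE 0.135, adjusted *p* = 0.396).

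**Figure D4:**
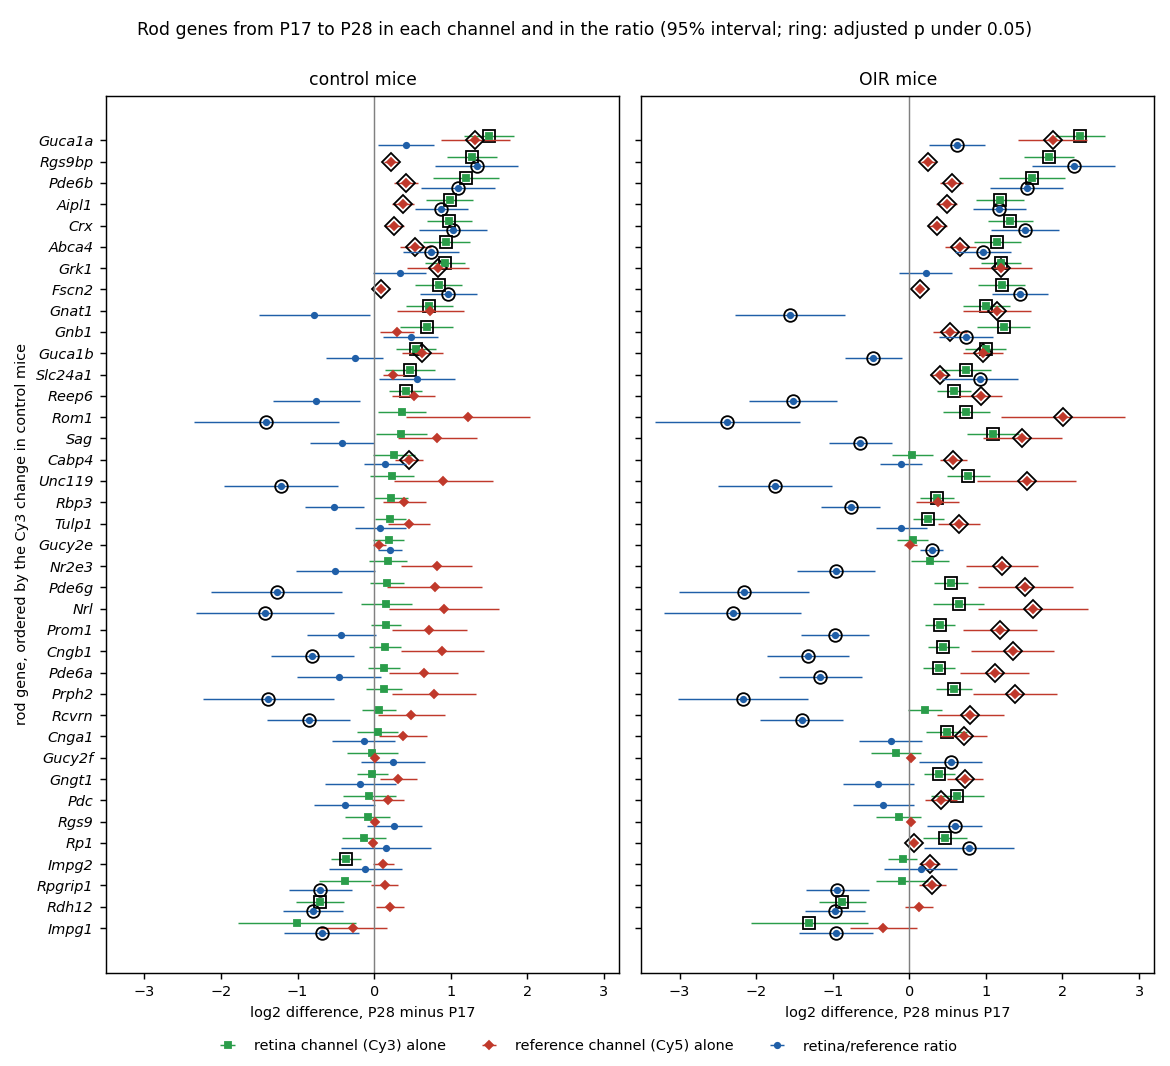
Log2 difference between P28 and P17 (x axis) of the 38 rod genes (y axis, ordered by the Cy3 difference in control mice) in control mice on the left and OIR mice on the right, for Cy3 alone (squares), the reference channel alone (diamonds) and the ratio (circles), with 95% confidence intervals from limma; black rings mark an adjusted p under 0.05. For *Rom1*, *Nrl*, *Prph2*, *Pde6g* and *Unc119* the diamonds lie to the right and the circles to the left of 0, whereas for *Rgs9bp*, *Pde6b*, *Crx* and *Fscn2* squares and circles lie together on the right.

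Several genes had probes that differed. From P17 to P28 in control mice, the second probe of *Guca1b* rose by 1.19 in the ratio (adjusted *p* = 7.62e-07) where the brightest was at -0.26 (adjusted *p* = 0.412), and the second probe of *Prom1* rose by 1.23 (adjusted *p* = 0.000113) where the brightest was at -0.43 (adjusted *p* = 0.21). The brightest probe of *Cngb1* fell by 0.81 in the ratio (adjusted *p* = 0.0346), whereas its other probes were at 0.20 and 0.39 and did not pass. The second probe of *Rgs9bp*, well above background on 35 arrays, was at -0.06 in Cy3 (adjusted *p* = 0.646).

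Other photoreceptor genes gave a mixed picture with age as well. From P12 to P17 in control mice, 8 of 43 rose and 4 fell in Cy3, where 1.65% and 1.36% of all probes did. From P17 to P28, 13 rose and 5 fell in Cy3, where 10.4% and 4.92% of all probes did. In the ratio on that step 9 rose and 0 fell in limma, beside 7.97% and 5.38% of all probes. The share that rose from P12 to P17 in Cy3 was thus 11 of 38 among the rod genes and 8 of 43 among the other photoreceptor genes, a difference that was not tested.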

How the data were processed

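Both retinas of each mouse were hybridized in Cy3 against a reference RNA in Cy5, per the data, although the labels name the dyes the other way round. The authors scanned the arrays and deposited, per the file headers, spot intensities from Agilent Feature Extraction 10.7.3.1 (array design build mm9), and a table of log2 ratios. That deposited table equals the log2 ratio of processed Cy3 to Cy5 signals within 0.001 for 100% of the probes on each array, with column medians from -0.127 to 0.00921, and served as an alternative.

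The deposited median intensities were background-corrected with normexp (offset 50) and loess-normalized within arrays in limma 3.58.1 under R 4.3.3. Control spots and spots with an outlier flag (0.592 to 0.951% per array) were left out, and spots of a probe were averaged. Of 55681 probes, 28026 had a symbol in the RefSeq table of GRCm38.p6. Each channel alone was corrected with normexp and quantile-normalized between arrays. OIR and control mice were compared in limma on the mice of that day, and ages and changes of the OIR effect in 1 model of all 6 groups, with Benjamini-Hochberg adjustment over all probes. The scripts were tested on simulated data.

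All rod genes called between OIR and control mice and, with age, the 5 largest called rises and falls in control mice are described in full. The rod genes and all lists were chosen with earlier results of these data known. Fits within single scans, Cy3 with the slide as a block, Cy3 at the 75th percentile and the reference channel alone were added after seeing the data.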

Additional observations from a re-analysis of the deposited data

How the results depend on the processing

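No paired analysis was possible because each mouse has a number of its own. Under an alternative, 45 counts of rod genes called moved by over 1.5 times, and the other counts did not. Of the values of single genes, 168 kept direction and call, 43 kept only the direction and 35 reversed. The causes were not tested.

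OIR against control mice on P17 gave 0 genes in place of 1 without background subtraction, without the offset, with the other choice of samples, with trend and robust variances, with Cy3 at the 75th percentile, within scans 1 and 4 in the ratio, and within scans 1, 3 and 4 in Cy3. It gave 2 in Cy3, with array weights and within scan 3, and 4 in Cy3 with the slide as a block. On P28, Cy3 gave 1 in place of 0, alone, with the slide as a block and within scan 4, and *Impg2* lost this call at the 75th percentile. Of all probes, 1.13% were called on P17, and 2.99% in Cy3, 2.49% with array weights and 1.87% within scan 3. The share was 3.55% in Cy3 with the block and 0.194% in Cy3 at the 75th percentile. It was 1.87% without background subtraction, 1.65% without the offset, 1.22% with the other choice of samples and 1.08% with trend and robust variances. Within scans 1 and 4 it was 0.111% and 0.0198%. In Cy3 within scans 1, 3 and 4 it was 0.392%, 1.03% and 0.00539%. With the filter on dim probes the share on P17 was 3.89%, above the 2.63% of the rod genes.

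From P12 to P17, control mice gave 12 in place of 3 in Cy3, 7 with the slide as a block, 5 with array weights, 15 in Cy3 with the block, 0 within scan 1, 5 within scan 4, and 1, 5 and 8 in Cy3 within scans 1, 3 and 4. OIR mice gave 10 in place of 3 in Cy3, 9 with the block, 6 with the filter on dim probes, 8 with array weights, 13 in Cy3 with the block, 7 and 1 within scans 3 and 4, and 7, 7 and 6 in Cy3 within scans 1, 3 and 4. From P17 to P28, control mice gave 28 in place of 16 with array weights, 26 in Cy3 at the 75th percentile, 0 within scan 3 in both measures and 25 within scan 4. OIR mice gave 19 in place of 31 with the block, 20 in Cy3 with the block, 6 within scan 4 and 12 in Cy3 within scan 4. Within scan 4 all the genes called in OIR mice were rises. The share of all probes called moved too. From P12 to P17 in control mice it was 1.28%, and 3.01% in Cy3, 3.16% with the block and 2.69% with array weights. It was 5.92% in Cy3 with the block and 4.35% with the filter on dim probes. Within scans 1 and 4 it was 0.00539% and 0.808%. In Cy3 within scans 1, 3 and 4 it was 0.122%, 0.726% and 2.01%. From P17 to P28 in control mice it was 13.4%, and 34.1% with array weights. Within scan 3 it was 0.151%, and 0.189% in Cy3, and within scan 4 it was 12.1%. In Cy3 at the 75th percentile it was 84.6%, above the 68.4% of the rod genes. At the 75th percentile the directions differed. All 26 rod genes called there were higher, whereas of all probes 8223 were higher and 38907 lower. In OIR mice the share of all probes was 3.43% from P12 to P17, and 8.08% in Cy3 and 7.26% with the block. It was 10.9% with the filter on dim probes, 8.07% with array weights and 13.4% in Cy3 with the block. Within scans 3 and 4 it was 2.79% and 0.945%. In Cy3 within scans 1, 3 and 4 it was 2.77%, 3.82% and 3.43%. From P17 to P28 it was 40.6%, and 17.2% with the block, 16.8% in Cy3 with the block and 4.92% within scan 4. In Cy3 within scan 4 it was 8.43%. With the filter on dim probes, the shares from P17 to P28 came closer to those of the rod genes. They were 35% against 52.6% of the rod genes in control mice, and 68.8% against 81.6% in OIR mice.

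In the deposited ratio, *Grk1* was at -0.25 from P12 to P17, and from P17 to P28 *Rgs9bp* was at -0.15, *Pde6b* at -1.0, *Crx* at -0.57, *Aipl1* at -0.91 and *Abca4* at -1.18, all in control mice. Without the offset, *Pde6b* was at -0.15, *Aipl1* at -0.46 and *Abca4* at -0.57. The falls of *Nrl*, *Rom1*, *Prph2*, *Pde6g* and *Unc119* from P17 to P28 turned to 0.16, 0.36, 0.12, 0.17 and 0.23 in Cy3, to 0.063, 0.21, 0.096, 0.10 and 0.14 in Cy3 with the slide as a block, to 0.20, 0.46, 0.22, 0.27 and 0.47 in Cy3 at the 75th percentile, to 0.055, 0.068, 0.030, 0.042 and 0.089 within scan 3, and to 0.052, 0.25, 0.22, 0.12 and 0.018 in Cy3 within scan 3. Within scan 4 in Cy3, *Rom1* was at 0.18, *Pde6g* at 0.051 and *Unc119* at 0.086. Scaling Cy3 to the 75th percentile moved the median of all probes by -0.85 in control mice and -1.26 in OIR mice from P17 to P28. A dim reference signal limits the ratio of 11 rod genes.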
